A study of Danio rerio with 6 samples.

Results

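The heat shock and chaperone genes of the adult zebrafish were followed across the pineal gland, the eye and a mixture of other organs, at night and by day. They were taken by gene symbol, ignoring case, from a table of 32105 genes. The symbols covered HSP70 and its relatives (hspa, hsp70, hsph), HSP90 (hsp90), the small heat shock proteins (hspb), the mitochondrial chaperonin (hspd, hspe), the J proteins (dnaja, dnajb, dnajc), the BAG proteins (bag), the cytosolic chaperonin TRiC (cct and tcp1) and the heat shock factors hsf1 and hsf2. Of the 32105 rows, 107 qualified, carrying 97 different symbols, 10 of them on 2 rows each. No row bore the symbol serpinh1b, which the rule also named. Reads were found for 106 of the 107 rows. The row CCT2 (ENSDARG00000104674) was listed at 0 in all 6 libraries.

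Chaperones bind unfolded or partly folded proteins and keep them from aggregating. HSP70 works in cycles of ATP use that J proteins start and that HSP110 and BAG proteins reset, HSP90 takes over clients such as kinases and steroid receptors, and TRiC folds actin and tubulin inside its ring. Most of these genes are active in unstressed cells, and a smaller number are switched on by heat shock factor 1 when proteins unfold. Photoreceptor cells, the sensory cells of both the retina and the fish pineal gland, make large amounts of membrane and signalling protein.

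Every fish carried the transgene Tg(aanat2:EGFP), whose aanat2 control regions make EGFP, a fluorescent protein, in the pineal gland, so that glands could be picked by their glow. The fish were adults of 0.5 to 1.5 years, raised under a daily cycle of 12 h light and 12 h dark and sampled at mid-night (ZT18) or mid-day (ZT6). Each pineal library was a pool of 18 glands and each eye library a pool of 6 whole eyes. The mixed library joined equal amounts of RNA from 8 organs, muscle, ovary, kidney, gill, liver, intestine, heart and brain, each from 4 to 8 fish. The 6 libraries were thus single pools, and no tissue was repeated at the same time of day.

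Between 7949224 reads (pineal night) and 15950819 reads (mixed night) stood behind the values of a library. Photoreceptor and pineal markers summed to 13120 and 10950 FPKM at night and by day in the pineal gland and to 9180 and 9756 FPKM in the eye, against 6.81 and 9.22 FPKM in mixed tissue. FPKM scale fragments to gene length and library size, so levels of different genes can be compared per length. Markers of 3 organs in the mixture were concentrated in the mixed libraries. Liver markers summed there to 4081 and 5251 FPKM at night and by day, striated muscle markers to 3198 and 3973 FPKM and ovary markers to 3318 and 2965 FPKM. The corresponding sums in the pineal and eye libraries were at most 50.4 FPKM for liver, 243 FPKM for muscle and 6.59 FPKM for ovary. Markers of brain, also in the mixture, were not concentrated there. They summed at night and by day to 54.4 and 50.2 FPKM in mixed tissue, 54.9 and 60.1 FPKM in the pineal gland, and 188 and 66.4 FPKM in the eye. Lens markers reached 4192 and 7594 FPKM in the eye at night and by day. The part of these cell types in the differences between tissues was not tested. In whole tissue, fewer cells of a type and less RNA per cell cannot be told apart.

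Together the 107 genes held 0.896% and 1.03% of all FPKM in the pineal gland at night and by day, 0.798% and 0.719% in the eye, and 1.36% and 1.34% in mixed tissue. The HSP70 of unstressed cells, HSPA8 (ENSDARG00000068992), was the highest in each tissue, with 685 and 688 FPKM in the pineal gland at night and by day, 441 and 384 FPKM in the eye, and 858 and 853 FPKM in mixed tissue. The constitutive HSP90, HSP90AB1 (ENSDARG00000029150), came next, with 525 and 668 FPKM in the pineal gland at night and by day, 380 and 381 FPKM in the eye, and 754 and 778 FPKM in mixed tissue. The third place differed by tissue, going to HSP90AA1 in the pineal gland (mean 221 FPKM over night and day), to the TRiC subunit CCT6B in the eye (96.3 FPKM) and to HSP90B1, the HSP90 of the endoplasmic reticulum, in mixed tissue (515 FPKM).

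**Figure D1:**
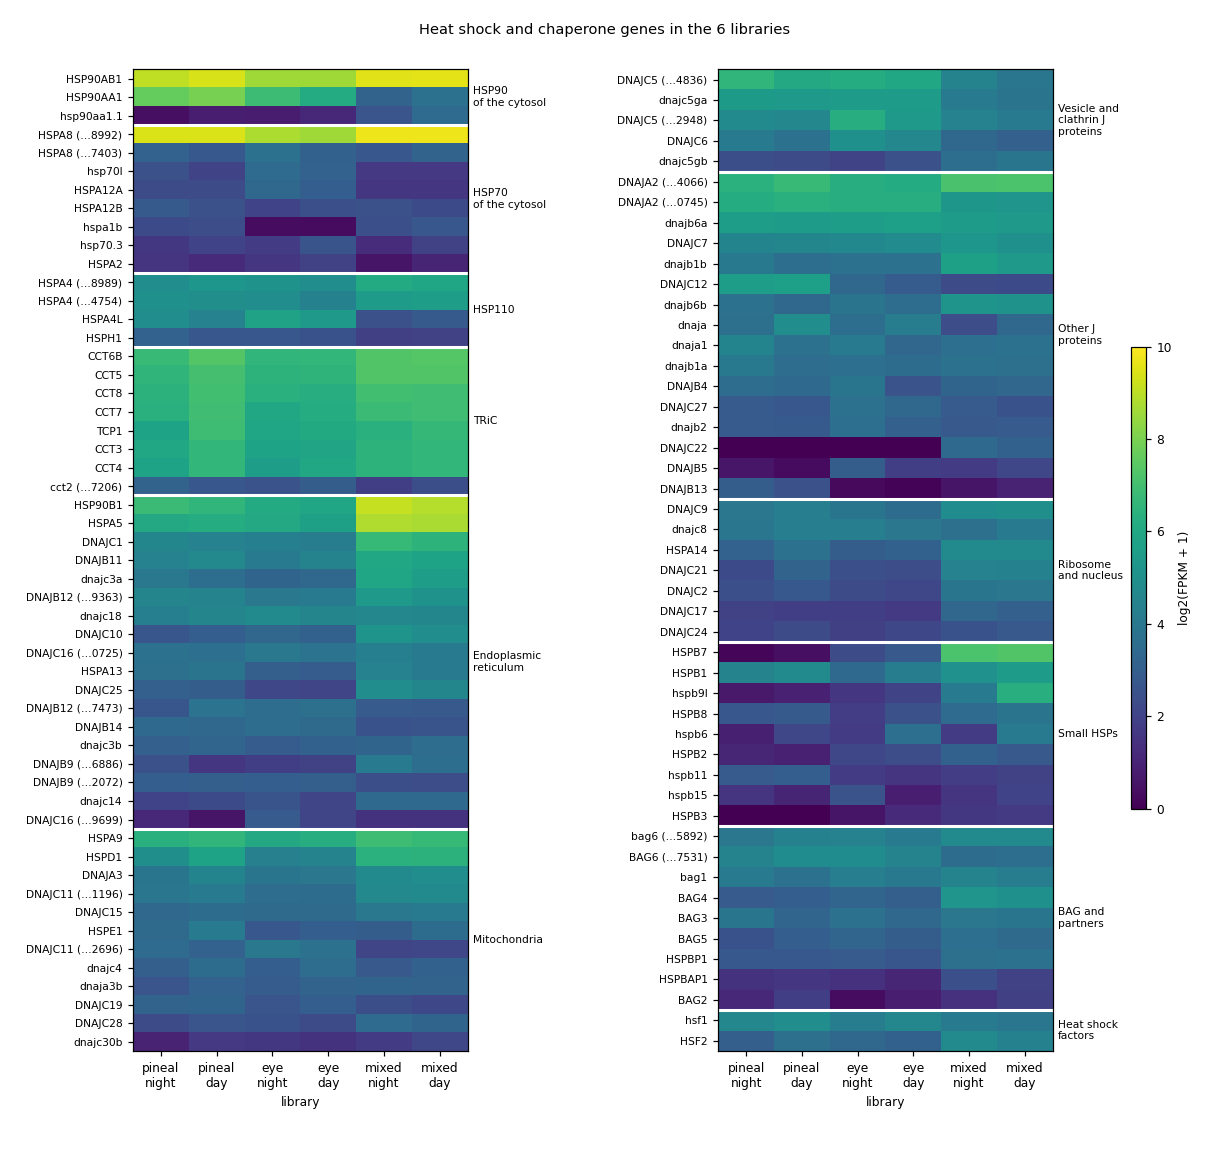
Levels of the 101 tested genes in the 6 libraries, as log2(FPKM + 1) by colour, with genes in rows by family and libraries in columns; digits after a symbol end the gene ID where a symbol stands on 2 rows. HSP90AA1 is brighter in the pineal and eye columns than in the mixed columns, while HSP90B1, HSPA5 and HSPB7 are brighter in the mixed columns.

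Tissues were compared with limma on log2(FPKM + 1) over all 6 libraries, with tissue and time of day as terms. The test ran on 21325 genes that reached 1 FPKM in 2 or more libraries, 101 of the chaperone genes among them. A gene was called at an adjusted p under 0.05 (Benjamini-Hochberg over all genes tested) and at least a 2-fold difference on that scale. Log2 values below are on that scale, which understates differences of genes near 0, and carry their standard error (SE). A night and a day pool stood in for replicates, so each p measures a difference against how far these 6 pools strayed from the sum of a tissue and a time effect.

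In the pineal gland against mixed tissue, 39 of 101 genes were called (38.6%, against 46.5% of all genes tested), 12 higher (11.9%, against 16.4%) and 27 lower (26.7%, against 30.1%). In the eye against mixed tissue, 45 of 101 were called (44.6%, against 49.2%), 12 higher (11.9%, against 20.7%) and 33 lower (32.7%, against 28.5%). The median log2 value of the chaperone genes was -0.39 in the pineal comparison, beside -0.28 over all genes, and -0.62 in the eye comparison, beside -0.19. Both comparisons share the mixed libraries. Quantile normalization moved the median of all genes to 0.06 in the pineal comparison and to 0.02 in the eye comparison, and changed the splits to 19 higher and 22 lower in the pineal gland and to 17 higher and 29 lower in the eye. With recovered reads and voom the pineal gland had 20 higher and 25 lower, and the eye 19 higher and 33 lower. The shares of all genes called under these scalings were not counted, so the splits given for them here and below have no background.

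**Figure D2:**
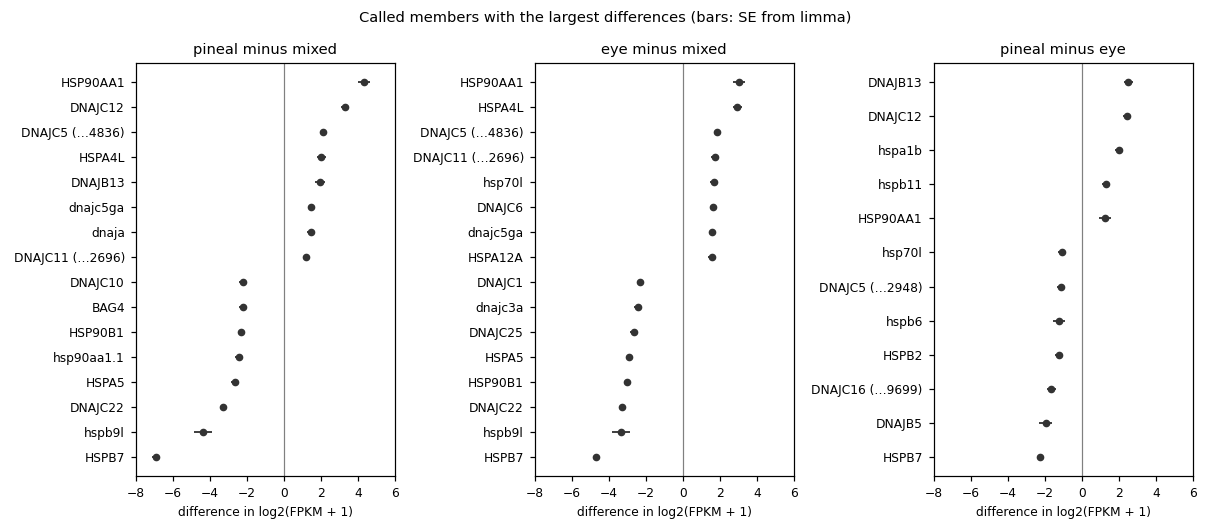
Log2 difference between tissues, on the log2(FPKM + 1) scale, for the called genes with the 8 largest positive and 8 largest negative values in each comparison (all 12 called genes for pineal minus eye); points are limma estimates and bars are SE. HSP90AA1 leads both comparisons with mixed tissue, at 4.33 and 3.05, and HSPB7 ends all 3.

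Of the heat shock factors, hsf1 (ENSDARG00000008818), the main regulator of the heat shock response, had 23.5 and 28.6 FPKM in the pineal gland at night and by day, 17.9 and 23.6 FPKM in the eye, and 16.6 and 14.2 FPKM in mixed tissue. The pineal libraries lay above the mixed libraries by 0.72 (SE 0.20, limma adjusted p 0.0256), short of a 2-fold difference. With voom hsf1 was called higher in the pineal gland. HSF2 (ENSDARG00000053097), a related factor with roles in development and in gametes, had 7.25 and 12.1 FPKM in the pineal gland at night and by day, 9.52 and 7.55 FPKM in the eye, and 25.7 and 19.96 FPKM in mixed tissue. It was called lower in both, at -1.19 in the pineal gland (SE 0.29, limma adjusted p 0.0162) and -1.32 in the eye (SE 0.29, limma adjusted p 0.0106). The pineal call was lost with quantile normalization, with voom, without the pineal night library and without the mixed night library. The eye call was lost without the eye day library and without the mixed night library.

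Against mixed tissue, the pineal gland had 1 of 3 cytosolic HSP90 genes higher and 1 lower. These are 33.3% each, against 16.4% and 30.1% of all genes. The eye had 1 higher (33.3%, against 20.7%) and 2 lower (66.7%, against 28.5%). HSP90AA1 (ENSDARG00000024746), a copy of the HSP90 alpha gene, had 196 and 246 FPKM in the pineal gland at night and by day, 115 and 69.8 FPKM in the eye, and 8.05 and 12.2 FPKM in mixed tissue. All pineal and eye libraries lay above both mixed libraries, and the pineal libraries above the eye libraries. It was the largest rise among the 107 genes in both comparisons, at 4.33 in the pineal gland (SE 0.32, limma adjusted p 0.000253) and 3.05 in the eye (SE 0.32, limma adjusted p 0.000778). The other copy, hsp90aa1.1 (ENSDARG00000010478), which in zebrafish serves myosin folding in striated muscle, ran the opposite way. It had 0.314 and 0.775 FPKM in the pineal gland at night and by day, 0.745 and 1.24 FPKM in the eye, and 5.15 and 10.2 FPKM in mixed tissue. Muscle, liver and ovary markers were all high in mixed tissue, and their part in these values was not tested. hsp90aa1.1 fell by 2.44 in the pineal gland (SE 0.22, limma adjusted p 0.000485) and by 2.07 in the eye (SE 0.22, limma adjusted p 0.000816). HSP90AB1 was called in the eye only at the edge of the 2-fold limit, at -1.01 (SE 0.19, limma adjusted p 0.00598), a call lost under both other scalings, without the eye day library and without the mixed night library. Its value in the pineal gland was -0.37 (SE 0.19, limma adjusted p 0.142).

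Of the 8 tested cytosolic HSP70 genes, 0 were called between the pineal gland and mixed tissue (0.0%, against 46.5% of all genes). However, 3 of the 8 were called higher with quantile normalization and 3 with voom. In the eye, HSPA8 (ENSDARG00000068992) was lower by 1.05 (SE 0.18, limma adjusted p 0.00429), a call lost under both other scalings, without the eye day library and without the mixed day library. The heat-inducible copies were low everywhere. The highest of them in the eye, hsp70l (ENSDARG00000055723), had 4.64 and 3.15 FPKM in the pineal gland at night and by day, 10.2 and 7.90 FPKM in the eye, and 2.12 and 2.16 FPKM in mixed tissue. It rose in the eye by 1.67 (SE 0.22, limma adjusted p 0.00160) but not past the limits in the pineal gland, at 0.62 (SE 0.22, limma adjusted p 0.0517). The row hsp70.3 (ENSDARG00000021924) ranged from 1.44 FPKM (mixed night) to 5.11 FPKM (eye day), and hsp70.1 (ENSDARG00000029688) stayed under 1 FPKM and was not tested. hspa1b (ENSDARG00000056210) had 3.80 and 4.17 FPKM in the pineal gland at night and by day, 0.258 and 0.231 FPKM in the eye, and 4.38 and 5.64 FPKM in mixed tissue, and was lower in the eye by 2.26 (SE 0.21, limma adjusted p 0.000482). Copies of this kind can be alike in sequence, which was not checked here. Reads may have been split between them, so their single values are uncertain. HSPA12A (ENSDARG00000070603), an atypical member of the HSP70 family, was the other called rise in the eye, with 9.02 and 7.04 FPKM in the eye at night and by day against 2.00 and 2.03 FPKM in mixed tissue (log2 value 1.57, SE 0.21, limma adjusted p 0.00173).

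Among the nucleotide exchange factors of HSP70, HSPA4L (ENSDARG00000053544), of the HSP110 group, stood out. It had 28.7 and 20.8 FPKM in the pineal gland at night and by day, 53.4 and 41.5 FPKM in the eye, and 4.53 and 6.15 FPKM in mixed tissue. The 3 tissues did not overlap. The rise over mixed tissue was 2.02 in the pineal gland (SE 0.25, limma adjusted p 0.00131) and 2.93 in the eye (SE 0.25, limma adjusted p 0.000373). HSPH1 (ENSDARG00000019874), the heat-inducible HSP110, rose in the pineal gland by 1.03 (SE 0.21, limma adjusted p 0.00885), with 7.80 and 5.64 FPKM at night and by day against 2.71 and 2.79 FPKM in mixed tissue. That call was lost without the pineal night library and without the mixed night library. Neither HSPA4 row was called in any comparison.

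Of the 9 tested BAG genes and partners of HSP70 or HSPB, the pineal gland had 1 higher and 1 lower (11.1% each, against 16.4% and 30.1% of all genes), and the eye 1 higher (11.1%, against 20.7%) and 2 lower (22.2%, against 28.5%). BAG4 (ENSDARG00000043179), known to silence death receptors, had 6.30 and 6.85 FPKM in the pineal gland at night and by day, 8.69 and 7.09 FPKM in the eye, and 36.5 and 31.8 FPKM in mixed tissue. It fell by 2.21 in the pineal gland (SE 0.18, limma adjusted p 0.000356) and by 1.99 in the eye (SE 0.18, limma adjusted p 0.000495). BAG6, which handles membrane proteins that miss their target, stands on 2 rows that did not move together. The row ENSDARG00000077531 had 21.2 and 28.4 FPKM in the pineal gland at night and by day, 28.0 and 21.2 FPKM in the eye, and 10.6 and 11.2 FPKM in mixed tissue, and was called higher in both, at 1.101 in the pineal gland and 1.09 in the eye. Both calls were lost without the mixed night library, the pineal call also without the mixed day or the pineal day library, and the eye call also without the eye night library. The row ENSDARG00000075892 was not called, at -0.60 in the pineal gland and -0.51 in the eye.

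Of the 5 tested J proteins of vesicles, the eye had 4 higher (80.0%, against 20.7% of all genes) and 1 lower, and the pineal gland 2 higher (40.0%, against 16.4%) and 1 lower. DNAJC5 encodes cysteine string protein, which keeps the fusion machinery of synaptic vesicles folded. Its row ENSDARG00000004836 had 93.8 and 64.5 FPKM in the pineal gland at night and by day, 72.2 and 60.5 FPKM in the eye, and 21.4 and 14.0 FPKM in mixed tissue. Pineal and eye libraries overlapped, and all lay above mixed tissue, at 2.103 in the pineal gland (SE 0.16, limma adjusted p 0.000286) and 1.87 in the eye (SE 0.16, limma adjusted p 0.000418). Its other row, ENSDARG00000042948, had 26.3 and 23.9 FPKM in the pineal gland at night and by day, 74.5 and 40.2 FPKM in the eye, and 20.7 and 16.2 FPKM in mixed tissue. There the rise was called in the eye, at 1.53 (SE 0.22, limma adjusted p 0.00219), and the pineal value was 0.43 (SE 0.22, limma adjusted p 0.138). A relative, dnajc5ga (ENSDARG00000041896), had 42.8 and 39.9 FPKM in the pineal gland at night and by day, 45.4 and 45.6 FPKM in the eye, and 15.8 and 13.3 FPKM in mixed tissue, with rises of 1.45 and 1.59. Its sister dnajc5gb (ENSDARG00000017687) fell in both, by 1.38 in the pineal gland and by 1.47 in the eye. DNAJC6 (ENSDARG00000079891) encodes auxilin, the J protein that strips clathrin from endocytic vesicles. It had 16.9 and 12.5 FPKM in the pineal gland at night and by day, 31.6 and 23.5 FPKM in the eye, and 9.39 and 7.31 FPKM in mixed tissue, and rose in the eye by 1.60 (SE 0.16, limma adjusted p 0.000629).

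The 16 tested J proteins of the cytosol and other places had 4 higher and 4 lower in the pineal gland. These are 25.0% each, against 16.4% and 30.1% of all genes. The eye had 1 higher (6.25%, against 20.7%) and 3 lower (18.8%, against 28.5%). DNAJC12 (ENSDARG00000086691) was the second largest rise in the pineal gland. In humans its product is a co-chaperone of the aromatic amino acid hydroxylases, the enzyme family that includes tryptophan hydroxylase, which opens the path to serotonin and melatonin. It had 45.8 and 48.7 FPKM in the pineal gland at night and by day, 9.36 and 6.59 FPKM in the eye, and 4.06 and 3.72 FPKM in mixed tissue. The lowest pineal library lay well above the highest of the other 4. The rise over mixed tissue was 3.30 (SE 0.20, limma adjusted p 0.000131), and the value in the eye against mixed tissue was 0.86 (SE 0.20, limma adjusted p 0.0126), short of the 2-fold limit. DNAJB13 (ENSDARG00000043157), a J protein of motile cilia and sperm tails, had 6.65 and 4.58 FPKM in the pineal gland at night and by day, 0.205 and 0.0733 FPKM in the eye, and 0.483 and 0.946 FPKM in mixed tissue. Only 5 and 2 reads stood behind the eye values at night and by day. Its rise over mixed tissue was 1.94 (SE 0.26, limma adjusted p 0.00174). DNAJB13 reached 1 FPKM in the pineal libraries alone. It thus entered the test only through the group where it was high, which limits what its p can show. The row dnaja (ENSDARG00000051762), a type A J protein, had 11.9 and 29.2 FPKM in the pineal gland at night and by day, 11.3 and 18.1 FPKM in the eye, and 4.11 and 9.30 FPKM in mixed tissue, with rises of 1.44 in the pineal gland and 1.08 in the eye. Both calls were lost without the time term, and the eye call also without the eye night or the mixed night library.

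On the low side, DNAJC22 (ENSDARG00000037067) had 9.74 and 7.61 FPKM in mixed tissue at night and by day and no read in any pineal or eye library. Setting 3 reads over both libraries of a tissue as a floor, it was at least 81.4-fold lower in the pineal gland and at least 121.9-fold lower in the eye. The inducible J proteins dnajb1b (ENSDARG00000041394) and dnajb6b (ENSDARG00000020953) were also lower in both, by 1.71 and 1.59 on the log2 scale in the pineal gland. Their paralogs dnajb1a (ENSDARG00000099383) and dnajb6a (ENSDARG00000004680) were not called in any comparison, and dnajb6a ranged only from 41.4 to 49.0 FPKM over the 6 libraries.

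Of the 8 tested rows of TRiC, 0 were called in the pineal gland against mixed tissue (0.0%, against 46.5% of all genes). The eye against mixed tissue also had 0 called (0.0%, against 49.2%). Of the 9 rows, 7 had 47.6 to 162 FPKM in every library, cct2 (ENSDARG00000087206) had 2.65 to 8.20 FPKM from 13 to 31 reads over a gene model of only 307 bases, and CCT2 was at 0. The 7 abundant subunits lay in a narrow band in each library, in the pineal gland between 54.4 and 106 FPKM at night and between 96.2 and 159 FPKM by day, in the eye between 47.6 and 95.7 FPKM at night and between 56.9 and 96.9 FPKM by day, and in mixed tissue between 81.0 and 153 FPKM at night and between 97.9 and 162 FPKM by day. The log2 values of these 7 against mixed tissue ran from -0.49 (CCT5) to -0.17 (TCP1) in the pineal gland and from -0.80 (CCT5) to -0.51 (TCP1) in the eye. The median over the 8 tested rows was -0.26 in the pineal gland, beside -0.28 over all genes, and -0.71 in the eye, beside -0.19. With voom the pineal median was 0.0024, and with quantile normalization 1 row was called higher in the pineal gland.

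Of the 18 tested chaperones of the endoplasmic reticulum, the pineal gland had 9 lower (50.0%, against 30.1% of all genes) and 0 higher, and the eye had 11 lower (61.1%, against 28.5%) and 1 higher. Quantile normalization gave 8 lower and 1 higher in the pineal gland and 10 lower and 2 higher in the eye, and voom gave 9 lower and 2 higher in the pineal gland and 11 lower and 3 higher in the eye. DNAJB14 (ENSDARG00000069996) lay on the other side, with 9.79 and 9.50 FPKM in the pineal gland at night and by day, 10.9 and 10.1 FPKM in the eye, and 4.66 and 4.99 FPKM in mixed tissue, short of the limits on the log2(FPKM + 1) scale. Their median log2 value was -1.003 in the pineal gland and -1.26 in the eye. Quantile normalization gave -0.75 in the pineal gland and -1.12 in the eye, and voom -1.01 and -1.17. HSPA5 (ENSDARG00000103846), the HSP70 of this compartment known as BiP, had 63.9 and 71.6 FPKM in the pineal gland at night and by day, 64.6 and 50.8 FPKM in the eye, and 443 and 424 FPKM in mixed tissue. HSP90B1 (ENSDARG00000003570) had 110 and 95.5 FPKM in the pineal gland at night and by day, 68.3 and 58.5 FPKM in the eye, and 555 and 476 FPKM in mixed tissue. Neither gene's pineal or eye libraries came near the mixed libraries. HSPA5 fell by 2.66 in the pineal gland (SE 0.18, limma adjusted p 0.000192) and by 2.90 in the eye (SE 0.18, limma adjusted p 0.000151), with HSP90B1 at -2.31 in the pineal gland (SE 0.15, limma adjusted p 0.000160) and -3.003 in the eye (SE 0.15, limma adjusted p 8.28e-05).

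Several J proteins of the endoplasmic reticulum were also called lower. DNAJC1 (ENSDARG00000001940), a membrane J protein at the translocon, had 22.9 and 20.4 FPKM in the pineal gland at night and by day, 18.8 and 17.8 FPKM in the eye, and 103 and 87.3 FPKM in mixed tissue. DNAJC10 (ENSDARG00000074727), which reduces disulphides in proteins bound for degradation, had 5.39 and 6.93 FPKM in the pineal gland at night and by day, 8.88 and 7.54 FPKM in the eye, and 35.6 and 28.6 FPKM in mixed tissue. Falls in the pineal gland and in the eye were 2.08 and 2.31 for DNAJC1 and 2.21 and 1.84 for DNAJC10. The co-chaperone and kinase inhibitor dnajc3a (ENSDARG00000041110) had 14.9 and 11.2 FPKM in the pineal gland at night and by day, 8.25 and 9.46 FPKM in the eye, and 58.3 and 46.0 FPKM in mixed tissue, and its paralog dnajc3b (ENSDARG00000017874) ranged only from 6.48 to 10.9 FPKM and was not called. DNAJC25 (ENSDARG00000067613) had 7.32 and 6.82 FPKM in the pineal gland at night and by day, 3.32 and 3.30 FPKM in the eye, and 28.7 and 23.3 FPKM in mixed tissue, a fall of 2.64 in the eye (SE 0.18, limma adjusted p 0.000209). DNAJB11 and DNAJB9 (ENSDARG00000016886) were also called lower in both tissues. The other DNAJB9 row, ENSDARG00000052072, was not called and lay on the other side. In the pineal gland it had 6.90 and 7.185 FPKM at night and by day. The eye had 6.99 and 7.21 FPKM, and mixed tissue 4.25 and 4.13 FPKM. For DNAJB12, ENSDARG00000039363 was called lower in the eye, and ENSDARG00000087473 was not called. The latter had 10.8 and 11.9 FPKM in the eye at night and by day against 6.285 and 6.005 FPKM in mixed tissue. The gene called higher in the eye was DNAJC16 (ENSDARG00000059699), which rose there by 1.00 (SE 0.25, limma adjusted p 0.0170), with 6.24 and 3.22 FPKM at night and by day against 1.77 and 1.75 FPKM in mixed tissue. That call was lost without the eye night library and without the mixed night library. Its other row, ENSDARG00000060725, was not called. It had 14.95 and 13.1 FPKM in the eye at night and by day against 18.8 and 17.1 FPKM in mixed tissue.

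The rest of the folding machinery of this compartment, taken from a list of 25 tested genes with none of the 107 chaperone genes among them, was counted as well. The pineal gland had 15 lower and 0 higher, and the eye 16 lower and 1 higher, against 30.1% and 28.5% of all genes lower. The disulphide isomerase PDIA4 (ENSDARG00000018491) had 39.8 and 32.5 FPKM in the pineal gland at night and by day, 20.2 and 19.3 FPKM in the eye, and 344 and 278 FPKM in mixed tissue. HYOU1 (ENSDARG00000013670), the HSP110 of the endoplasmic reticulum, fell by 2.77 in the pineal gland (SE 0.15, limma adjusted p 0.000102) and by 3.34 in the eye (SE 0.15, limma adjusted p 6.78e-05). The rise in the eye was that of atf4b (ENSDARG00000038141), a transcription factor of the integrated stress response, at 1.21 (SE 0.17, limma adjusted p 0.00201). Liver and ovary, organs that secrete or store large amounts of protein, were part of the mixture, and their marker sums are given above. Their part in these values was not tested.

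The 12 tested genes of mitochondria had 1 higher and 1 lower in the pineal gland. These are 8.33% each, against 16.4% and 30.1% of all genes. The eye had 1 higher (8.33%, against 20.7%) and 2 lower (16.7%, against 28.5%). The chaperonin gene HSPD1 (ENSDARG00000056160), known as HSP60, had 30.8 and 54.1 FPKM in the pineal gland at night and by day, 19.7 and 21.1 FPKM in the eye, and 82.6 and 84.1 FPKM in mixed tissue. It fell by 1.98 in the eye (SE 0.23, limma adjusted p 0.00109) and by 1.01 in the pineal gland (SE 0.23, limma adjusted p 0.0126), the pineal call being lost with voom, without the pineal night library and without the mixed night library. Its partner HSPE1 (ENSDARG00000056167), known as HSP10, had 10.01 and 15.8 FPKM in the pineal gland at night and by day, 5.6 and 6.88 FPKM in the eye, and 6.82 and 10.7 FPKM in mixed tissue, and was not called. The mitochondrial HSP70, HSPA9 (ENSDARG00000003035), had 79.5 and 95.3 FPKM in the pineal gland at night and by day, 64.4 and 75.1 FPKM in the eye, and 118 and 104 FPKM in mixed tissue, and was not called either. DNAJC11, a J protein of the cristae, stands on 2 rows that differed in direction. The row ENSDARG00000102696 had 10.2 and 7.83 FPKM in the pineal gland at night and by day, 14.9 and 12.1 FPKM in the eye, and 3.26 and 3.36 FPKM in mixed tissue, with rises of 1.21 in the pineal gland and 1.75 in the eye. The row ENSDARG00000011196 was at -0.73 in the pineal gland, short of 2-fold, and fell by 1.19 in the eye. The pineal rise missed the threshold without the mixed night library (limma adjusted p 0.0505).

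J proteins and HSP70 partners of the ribosome and nucleus were lower in 4 of 7 in the pineal gland (57.1%, against 30.1% of all genes) and in 5 of 7 in the eye (71.4%, against 28.5%), with none higher. DNAJC2 (ENSDARG00000070477) and HSPA14 (ENSDARG00000058030) form a pair that meets new chains at the ribosome. HSPA14 had 7.83 and 12.2 FPKM in the pineal gland at night and by day, 6.66 and 7.67 FPKM in the eye, and 25.9 and 26.8 FPKM in mixed tissue. Its falls were 1.34 in the pineal gland (SE 0.20, limma adjusted p 0.00266) and 1.74 in the eye (SE 0.20, limma adjusted p 0.00102), and those of DNAJC2 were 1.32 and 1.72 in the pineal gland and in the eye. DNAJC2 and DNAJC17 lost the pineal call with quantile normalization, which left 2 of 7, and DNAJC9 lost the eye call without the eye day library, at -0.92.

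Of the 9 tested small heat shock proteins, the pineal gland had 5 lower (55.6%, against 30.1% of all genes) and 1 higher, and the eye 4 lower (44.4%, against 28.5%) and 0 higher. HSPB7 (ENSDARG00000104441), a protein of heart and skeletal muscle, had 0.119 and 0.342 FPKM in the pineal gland at night and by day, 3.87 and 5.85 FPKM in the eye, and 141 and 155 FPKM in mixed tissue. It fell by 6.92 in the pineal gland (SE 0.19, limma adjusted p 1.74e-05) and by 4.69 in the eye (SE 0.19, limma adjusted p 4.81e-05). The row hspb9l (ENSDARG00000002204) had 0.604 and 0.869 FPKM in the pineal gland at night and by day, 2.00 and 3.19 FPKM in the eye, and 16.2 and 75.4 FPKM in mixed tissue. HSPB3 (ENSDARG00000067714), another muscle member, had no read in either pineal library, which put it at least 6.2-fold lower than in mixed tissue with the floor of 3 reads. HSPB7, HSPB2 and HSPB3 are known from muscle, and the summed muscle markers were 19.6 and 21.3 FPKM in the pineal gland at night and by day, 243 and 216 FPKM in the eye, and 3198 and 3973 FPKM in mixed tissue. The part of muscle in their values was not tested. HSPB1 (ENSDARG00000041065), known as HSP27, had 21.4 and 26.4 FPKM in the pineal gland at night and by day, 9.72 and 17.4 FPKM in the eye, and 32.4 and 45.6 FPKM in mixed tissue, a fall of 1.49 in the eye (SE 0.18, limma adjusted p 0.00127). The single rise was hspb11 (ENSDARG00000067777), whose product is a subunit of the intraflagellar transport machinery of cilia and is also called IFT25. It had 6.25 and 7.01 FPKM in the pineal gland at night and by day, 2.397 and 1.85 FPKM in the eye, and 2.48 and 2.88 FPKM in mixed tissue, a rise of 1.05 in the pineal gland (SE 0.22, limma adjusted p 0.00897) that was lost without the pineal day, the mixed night or the mixed day library.

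Other proteostasis genes were counted from lists of symbols, beside 30.1% of all genes lower and 16.4% higher in the pineal gland, and 28.5% lower and 20.7% higher in the eye. Of 25 HSP90 partners, 9 were lower and 0 higher in the pineal gland, and again 9 and 0 in the eye. They included SMYD1 and UNC45B, which serve myosin in muscle together with HSP90, and ptges3l, a relative of the co-chaperone p23. The pineal log2 values were -2.31 and -2.36 for the SMYD1 rows, -2.29 for UNC45B and -2.84 for ptges3l. Of 8 prefoldin and phosducin-like genes, which hand clients to TRiC or tune it, the pineal gland had 1 higher and 2 lower, and the eye 1 higher and 4 lower. The rise in each was PDCL (ENSDARG00000009480), a partner of G protein beta-gamma subunits, with 48.5 and 41.0 FPKM in the pineal gland at night and by day, 38.4 and 34.6 FPKM in the eye, and 13.7 and 14.8 FPKM in mixed tissue (1.58 in the pineal gland and 1.30 in the eye on the log2 scale). Of 14 mitochondrial quality control genes, the pineal gland had 0 higher and 1 lower, and the eye 1 higher and 2 lower. Of 13 genes of oxidative and proteotoxic stress, 3 were lower in the pineal gland and 6 in the eye, with 0 higher in either. Among 5 other heat shock factors and their binding proteins, 1 was lower in the pineal gland, and 2 were higher and 2 lower in the eye. HSF4 (ENSDARG00000013251), a factor of the lens, had 1.49 and 5.09 FPKM in the eye at night and by day and at most 0.229 FPKM elsewhere. The alpha crystallins, lens relatives of the small heat shock proteins, were higher in the eye in 3 of 3 rows, by 8.84 for CRYAA and by 8.18 and 6.39 for the CRYAB rows. Of the 3, the pineal gland showed a call only for the CRYAB row ENSDARG00000101380, at 1.96 (SE 0.35, limma adjusted p 0.00503), with 9.18 and 8.63 FPKM at night and by day against 1.71 and 1.40 FPKM in mixed tissue.

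Between the photosensory organs, 12 of 101 genes were called in the pineal gland against the eye (11.9%, against 23.4% of all genes tested), 5 higher (4.95%, against 9.25%) and 7 lower (6.93%, against 14.1%). The median was 0.13, beside -0.04 over all genes. Quantile normalization gave 8 higher and 4 lower, and voom 9 higher and 8 lower, with the shares of all genes not counted. DNAJB13 (2.52, SE 0.26, limma adjusted p 0.00199), DNAJC12 (2.44, SE 0.20, limma adjusted p 0.00111) and hspa1b (2.00, SE 0.21, limma adjusted p 0.00204) were higher in the pineal gland, and HSPB7 was lower, by 2.24 (SE 0.19, limma adjusted p 0.00117). These 4 calls held under every alternative in which the gene was tested. DNAJB13 was tested in only 11 of 14 alternatives, as it failed the filter at 5 FPKM and without either pineal library. Its call could not be lost there, so these settings say nothing about it. hspa1b was tested in 13 of 14. Each of the remaining 8 called genes lost the call when at least 1 library was left out. They were hspb11 (1.29) and HSP90AA1 (1.28), higher, and DNAJB5 (-1.95), DNAJC16 (ENSDARG00000059699, -1.64), HSPB2 (-1.24), hspb6 (-1.21), DNAJC5 (ENSDARG00000042948, -1.10) and hsp70l (-1.04), lower. DNAJB5 (ENSDARG00000052881) had 0.531 and 0.229 FPKM in the pineal gland at night and by day, from 5 and 3 reads, against 6.67 and 2.64 FPKM in the eye. HSPB2 (ENSDARG00000052450), a muscle member, had 1.11 and 0.913 FPKM in the pineal gland at night and by day against 3.38 and 4.12 FPKM in the eye. No TRiC, HSP110, mitochondrial, ribosome and nucleus, BAG or heat shock factor gene was called in this comparison, though quantile normalization and voom called 1 and 2 mitochondrial genes and 1 BAG gene each as higher.

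Night against day was asked first over the 3 tissues together, as the time term of the same fit. None of the 101 genes was called, and none of the 21325 genes either (0.0%), and voom also called 0 of the 101. At an unadjusted p under 0.05 there were 11 of the 101 (10.9%, against 7.06% of all genes). The lowest p belonged to hspb6 (ENSDARG00000077236), the small heat shock protein HSP20, at -1.85 (SE 0.25, p 0.000525, limma adjusted p 0.447, and 0.0547 to 1.0 over the alternatives). It had 0.834 and 3.39 FPKM in the pineal gland at night and by day, 2.399 and 11.7 FPKM in the eye, and 2.43 and 17.1 FPKM in mixed tissue. The night value was lower in 3 of 3 tissues. The next was dnaja (ENSDARG00000051762), at -0.96 (SE 0.17, p 0.00176, limma adjusted p 0.614, and 0.184 to 1.0 over the alternatives), also lower at night in 3 of 3 tissues.

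Single tissues offered 1 night and 1 day library, so what follows has no test and no replicate check. Ratios of night over day carry a 95% exact interval (Clopper-Pearson) from the recovered reads, which covers counting error only. Genes were counted by size where the higher of the pair of libraries reached 5 FPKM. Of 78 such chaperone genes in the pineal gland, 4 differed at least 2-fold (5.13%, against 6.92% of 11753 genes), 0 higher at night (0.0%, against 3.05%) and 4 lower (5.13%, against 3.87%). The eye had 4 of 78 (5.13%, against 13.4%), 2 higher (2.56%, against 7.13%) and 2 lower (2.56%, against 6.27%). Mixed tissue had 3 of 80 (3.75%, against 4.49%), 0 higher (0.0%, against 1.15%) and 3 lower (3.75%, against 3.34%).

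Smaller differences in the pineal gland leaned to lower values at night. Of the 78 genes, 49 were below 1 in the ratio (62.8%, against 53.4% of all genes) and 29 above (37.2%, against 46.6%), with a median log2 ratio of -0.16, beside -0.04 over all genes. In the eye 33 were below (42.3%, against 40.5%) and 45 above (57.7%, against 59.5%), and in mixed tissue 39 below (48.8%, against 46.1%) and 41 above (51.2%, against 53.9%).

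Nearly all of TRiC and of the mitochondrial group lay below 1 in the pineal gland. For TRiC this was 7 of 8 rows (87.5%, against 53.4% of all genes). The direction was shared by 7 of 8 rows in the eye (87.5%, against 40.5%) and 6 of 7 in mixed tissue (85.7%, against 46.1%). These counts take direction alone, and several of the differences were small. In the eye CCT5 had 87.2 and 89.1 FPKM at night and by day, and CCT6B 95.7 and 96.9 FPKM. The eye ratio was 0.969 (0.9085 to 1.03) for CCT3, 0.871 (0.820 to 0.925) for CCT7 and 0.785 (0.729 to 0.845) for CCT4. CCT5 had 152.9 and 156.4 FPKM in mixed tissue. TCP1 (ENSDARG00000017891), the first subunit of TRiC, had 54.4 FPKM at night and 117 FPKM by day in the pineal gland, a ratio of 0.464 (0.428 to 0.502). In the eye it had 59.1 FPKM at night and 66.9 FPKM by day, a ratio of 0.883 (0.826 to 0.945), and in mixed tissue 81.0 FPKM at night and 100.4 FPKM by day, a ratio of 0.807 (0.765 to 0.851). CCT4 (ENSDARG00000013475) had 54.8 and 98.4 FPKM in the pineal gland at night and by day, 47.6 and 60.6 FPKM in the eye, and 87.2 and 98.6 FPKM in mixed tissue. Its pineal ratio was 0.556 (0.513 to 0.603), and those of CCT3, CCT6B, CCT7, CCT8 and CCT5 ran from 0.631 (CCT3) to 0.712 (CCT5). All 7 intervals ended below 1. They cover counting error only and are narrow for genes with many reads. The share of all genes with intervals below 1 was not counted. The short row cct2 stood at 1.46 (0.741 to 2.90) on 20 and 19 reads. Summed over the family, TRiC held 544 and 853 FPKM in the pineal gland at night and by day, 493 and 524 FPKM in the eye, and 803 and 860 FPKM in mixed tissue. The pineal sum by day was thus close to that of mixed tissue, and the sum at night close to that of the eye. Scaling by the median ratio or by TMM left 7 of 8 rows below 1 in the pineal gland, with medians of -0.55 and -0.61 on the log2 scale.

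**Figure D3:**
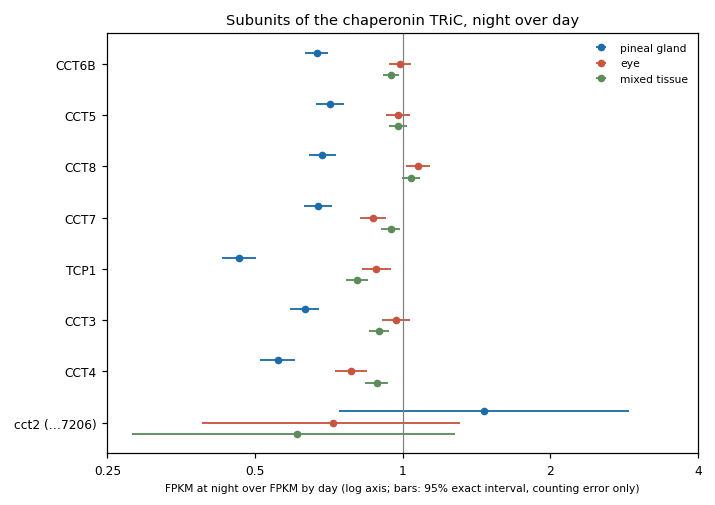
FPKM at night over FPKM by day for the TRiC subunits, on a log axis, in the pineal gland, eye and mixed tissue (1 library per tissue and time; bars are 95% exact intervals for counting error only). Pineal ratios of 7 subunits lie between 0.464 and 0.712, left of the eye and mixed ratios of the same gene, while the short row cct2 has wide intervals.

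Of the 11 mitochondrial genes over the minimum, 10 were below 1 in the pineal gland (90.9%, against 53.4% of all genes). The eye had 7 of 10 below 1 (70.0%, against 40.5%) and mixed tissue 6 of 9 (66.7%, against 46.1%). Scaling by the median ratio or by TMM put 9 of 10 below 1 in the eye. HSPD1 had a ratio of 0.569 (0.520 to 0.621) in the pineal gland, against 0.934 (0.848 to 1.03) in the eye and 0.982 (0.939 to 1.03) in mixed tissue. HSPE1 had 0.635 (0.518 to 0.776) in the pineal gland, 0.814 (0.648 to 1.02) in the eye and 0.636 (0.529 to 0.763) in mixed tissue. The J proteins that partner the mitochondrial HSP70, DNAJA3 (ENSDARG00000058494) and dnaja3b (ENSDARG00000102295), had pineal ratios of 0.637 (0.556 to 0.728) and 0.657 (0.504 to 0.852). The exception was DNAJC11 (ENSDARG00000102696), at 1.31 (1.15 to 1.49). All 5 ribosome and nucleus genes over the minimum were also below 1 in the pineal gland, with DNAJC21 (ENSDARG00000105195), a factor of ribosome assembly, at 3.81 FPKM at night and 8.03 FPKM by day, a ratio of 0.474 (0.358 to 0.622).

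The other pineal genes past 2-fold were dnaja, at 0.407 (0.328 to 0.503), and DNAJB12 (ENSDARG00000087473), a J protein of the endoplasmic reticulum membrane, with 5.41 FPKM at night and 13.1 FPKM by day, at 0.411 (0.320 to 0.524). This DNAJB12 row had 10.8 and 11.9 FPKM in the eye at night and by day, and 6.29 and 6.00 FPKM in mixed tissue. The other DNAJB12 row, ENSDARG00000039363, was more abundant in the pineal gland and nearly level there. It had 22.55 FPKM at night and 21.49 FPKM by day, a ratio of 1.049 with a counting interval that included 1. On the other side, several genes were higher at night in the pineal gland without reaching 2-fold. They are named for their direction, from the 29 of 78 genes above 1 (37.2%, against 46.6% of all genes). The largest was dnaja1 (ENSDARG00000030972), with 21.6 FPKM at night and 12.5 FPKM by day, a ratio of 1.72 (1.49 to 1.99). BAG3 (ENSDARG00000039486), which links HSP70 to autophagy, was at 1.59 (1.31 to 1.91), dnajb1a at 1.40 (1.14 to 1.71), dnajb1b at 1.38 (1.16 to 1.65), HSPH1 at 1.38 (1.15 to 1.67) and HSPA4L at 1.38 (1.25 to 1.53). All 4 vesicle J proteins over the minimum were above 1, with DNAJC5 (ENSDARG00000004836) at 1.45 (1.39 to 1.52) and DNAJC6 at 1.35 (1.24 to 1.48). HSPA8 (ENSDARG00000068992) was level, at 0.996 (0.975 to 1.02), and HSP90AB1 lower, at 0.786 (0.770 to 0.802).

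Other features moved between the pineal libraries too. Erythrocyte markers summed to 138 FPKM at night and 236 FPKM by day. Over the minimum, 7 of 7 were lower at night, against 53.4% of all genes. Immediate early genes, which cells switch on within minutes of stimulation, summed to 601 FPKM at night and 183 FPKM by day. Over the minimum, 9 of 14 were at least 2-fold higher at night, against 3.05% of all genes. Their part in the pineal values of the chaperones was not tested. The pineal night library had the fewest reads of the 6, 7949224, against 11045259 in the pineal day library.

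In the eye, DNAJB4 (ENSDARG00000038978), an inducible J protein, had 13.6 FPKM at night and 4.92 FPKM by day, a ratio of 2.77 (2.27 to 3.38), against 1.13 (0.915 to 1.39) in the pineal gland. DNAJB5 had 6.67 FPKM at night and 2.64 FPKM by day, a ratio of 2.52 (1.77 to 3.64). Lower at night were hspb6, at 0.205 (0.156 to 0.266), and hsp70.3, with 2.31 FPKM at night and 5.11 FPKM by day, at 0.451 (0.339 to 0.595). dnaja1 reached 1.83 (1.59 to 2.11), near its pineal ratio. Just under the minimum, hspb15 (ENSDARG00000078411) had 4.87 FPKM at night and 0.812 FPKM by day in the eye, a ratio of 5.99 (3.54 to 10.7) on 91 and 17 reads. Marker sums differed between the eye libraries as well. Lens markers summed to 4192 FPKM at night and 7594 FPKM by day, and neuron and brain markers to 188 FPKM at night and 66.4 FPKM by day, and their part in these ratios was not tested.

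**Figure D4:**
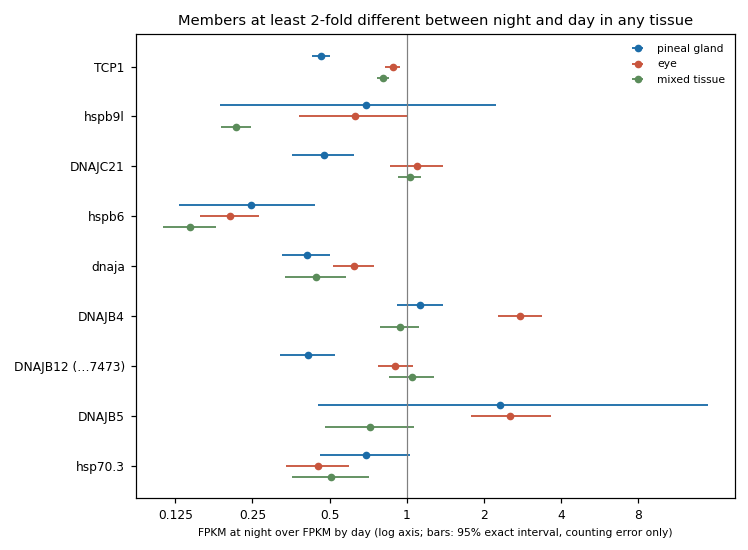
FPKM at night over FPKM by day, on a log axis, in all 3 tissues for the 9 genes that differed at least 2-fold with at least 5 FPKM in any tissue (bars are 95% exact intervals for counting error only). hspb6 and dnaja lie left of 1 in each tissue, while DNAJB4 lies near 2.77 in the eye and near 1 elsewhere.

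Among genes over the minimum in mixed tissue, hspb6 had the lowest ratio, 0.143 (0.112 to 0.180), followed by hspb9l, at 0.216 (0.188 to 0.246), and dnaja, at 0.442 (0.335 to 0.580). Below the minimum, hspb9 (ENSDARG00000078674) had a mixed ratio of 0.138 (0.0569 to 0.291) on 8 and 57 reads at night and by day. The pineal values of hspb6 were also below the minimum of 5 FPKM, with 14 and 79 reads at night and by day and a ratio of 0.246 (0.129 to 0.438). Striated muscle markers summed to 3198 FPKM at night and 3973 FPKM by day in mixed tissue, and their part in these ratios was not tested. Of 15 endoplasmic reticulum genes over the minimum, 14 were above 1 in mixed tissue (93.3%, against 53.9% of all genes). The pineal gland had 7 of 15 above 1 (46.7%, against 46.6%) and the eye 10 of 16 (62.5%, against 59.5%). Over all tissues, 63 chaperone genes passed the minimum in each. By direction alone, whatever the size, 15 of them were lower at night in all 3 tissues (23.8%, against 15.1% of 8528 genes). TCP1, CCT3, CCT4, CCT5, CCT6B and CCT7 were among them, with CCT3, CCT5 and CCT6B nearly level in the eye. Another 11 were higher in all 3 (17.5%, against 19.1%), among them both DNAJC5 rows, DNAJC6, BAG3 and HSP90B1.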

How the data were processed

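Poly-A RNA was sequenced from 6 pooled libraries, 1 per tissue and time. The authors deposited 1 table of FPKM values, and the submitters' processing notes name FastQC, STAR 2.3.0e, featureCounts, DESeq2 and the genome build danRer10. Annotation release, strand setting and filters are not given in the sources used here, so overlapping and antisense genes cannot be told apart. Each column of means, which the deposited table also holds, was left out. Symbols came from a table pairing gene IDs with symbols, which named 26269 of 32105 IDs.

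The steps of the deposited FPKM values gave back whole reads; 146143 of 146167 values above 0 (99.98%) were rebuilt within 1e-06, and a common factor was put back for 519 genes. Whether a unit is a read or a fragment is not shown by the values, and intervals cover counting error only.

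The tissue comparisons used limma 3.58.1 under R 4.3.3 (two-sided, trended variance, 2 residual and 3.46 prior degrees of freedom) on log2(FPKM + 1), with a pseudocount of 1. The scripts were tested on simulated data. The libraries are pools with no repeats, so p-values measure only the spread between these pools. The genes and lists were chosen with earlier results of these data known. Values in every library are given for called genes with the 8 largest rises and falls, genes at least 2-fold different between night and day, the 5 highest in each tissue and the core HSP90, HSP70, TRiC and heat shock factor genes. Alternatives were other pseudocounts, filters, scalings, voom on recovered reads, a robust prior, other models and leaving out each library. Promoter motifs were not analysed here.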

Additional observations from a re-analysis of the deposited data

Results flagged for a closer look

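Of the 63 chaperone genes that reached 5 FPKM in each tissue, 7 had opposite night and day differences in the pineal gland and the eye, at least 1.2-fold in each and with counting intervals that left out 1. The share of all genes that meet this rule was not counted, so the 7 cannot be read as a trait of chaperone genes. All were lower at night in the pineal gland and higher at night in the eye. The difference between the tissues was not tested, since each had 1 library per time point. The night over day ratio of HSP90AA1 (ENSDARG00000024746) was 0.794 (0.771 to 0.818) in the pineal gland and 1.65 (1.59 to 1.72) in the eye, with 196 and 246 FPKM in the pineal gland at night and by day and 115 and 69.8 FPKM in the eye. HSF2 (ENSDARG00000053097) had 0.602 in the pineal gland and 1.26 in the eye. BAG5 (ENSDARG00000017316), a nucleotide exchange factor of HSP70, had 0.675 in the pineal gland and 1.29 in the eye. Both BAG6 rows moved this way, with 0.744 and 1.32 in the pineal gland and the eye for ENSDARG00000077531, and 0.743 and 1.28 for ENSDARG00000075892. The histone chaperone gene DNAJC9 (ENSDARG00000031293) had 0.797 in the pineal gland and 1.30 in the eye, and the splicing J protein gene dnajc8 (ENSDARG00000059373) 0.785 in the pineal gland and 1.25 in the eye. The median log2 ratio of all genes was -0.04 in the pineal gland and 0.11 in the eye. When these medians were set to 0, a step chosen after seeing the data, only HSP90AA1 (0.815 in the pineal gland and 1.53 in the eye) and the BAG6 row ENSDARG00000077531 (0.764 and 1.23) of the 7 still met the rule, and dnajc3a (ENSDARG00000041110) met it in the opposite direction (1.37 in the pineal gland and 0.808 in the eye).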

How the results depend on the processing

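The median log2 value of the chaperone genes in the pineal gland against mixed tissue was -0.16 with voom and ran from -0.56 to -0.33 when 1 library was left out. In the eye against mixed tissue it was -0.55 with no filter, -0.44 with quantile normalization and -0.48 with voom, and ran from -0.71 to -0.52 without 1 library. Placing genes with no read at their bound could not move either median, as these genes already lay below it. The medians stayed at -0.39 and -0.62. In the pineal gland against the eye, leaving out 1 library gave 4 (without the pineal day library) to 13 called, with 6 without the pineal night library, and medians of 0.0022 to 0.166. Voom and a pseudocount of 0.1 each called 17 there, and the median was 0.22 with quantile normalization and 0.24 with voom. Of the called genes, 26 of 39, 36 of 45 and 4 of 12 (pineal against mixed, eye against mixed, pineal against eye) held the call under every alternative in which they were tested. A gene that failed the filter of an alternative was not tested there and counts as held. How many of all called genes held the call was not counted. DNAJB13 was tested in 11 of 14, and not without either pineal library. DNAJC22 was tested in 12 of 14, and not without either mixed library. HSP90AA1 missed the threshold against the eye without the eye day (adjusted p 0.0717), pineal day (0.155) or pineal night library (0.0787) and with no filter (0.0619). hspb11 and DNAJB5 missed it without either pineal library, DNAJC16 (ENSDARG00000059699) without the pineal day library, DNAJC5 (ENSDARG00000042948) without the eye night or pineal night library, HSPB2 without the eye day or either pineal library, hsp70l without any pineal or eye library, and hspb6 without the eye day, eye night or pineal day library, with no filter and with no time term. Quantile normalization also ended the calls of HSPB2, hsp70l and hspb6. Over the called genes of the tissue comparisons and the genes singled out between night and day, 1432 values under the alternatives kept direction and call, 80 lost the call, 2 moved and 0 changed sign; the cause was not tested.

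With a minimum of 1 FPKM, 9 of 95 genes in the pineal gland differed at least 2-fold between night and day. Mixed tissue had 5 of 101 and the eye 6 of 97. With 20 FPKM the counts were 2 of 35 in the pineal gland, 1 of 43 in mixed tissue and 0 of 30 in the eye. The shares of all genes at these minima were not counted. The pineal median was -0.29 with 20 FPKM, and the eye median -0.0105 with TMM scaling. Opposite directions in the pineal gland and the eye were found for 7 genes, and for 3 with all-gene medians set to 0, a step chosen after seeing the data. Libraries could not be paired by replicate number, because the labels carry none that pair libraries across groups. Tissue and time of day were terms of the fit, which set night against day within tissues. Depth limits the low genes: a gene with no read could be up to 3 reads over both libraries of a tissue.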

Other observations

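A pair of genes outside the chaperone families above differed between night and day in each tissue and were picked after their values were seen. FKBP5 (ENSDARG00000028396), a co-chaperone of HSP90 that steroid receptors induce, had 160.5 FPKM at night and 249 FPKM by day in the pineal gland, 37.1 and 373 FPKM at night and by day in the eye, and 57.2 and 170.0 FPKM in mixed tissue. It was lower at night in 3 of 3 tissues, by 1.83 on the log2 scale over the tissues (SE 0.49, limma adjusted p 0.679), and was not called. SERPINH1 encodes the collagen chaperone HSP47 and stands on 2 rows. The row ENSDARG00000019949 had 20.4 FPKM at night and 8.40 FPKM by day in the pineal gland, 5.71 and 3.31 FPKM at night and by day in the eye, and 4.31 and 2.27 FPKM in mixed tissue, higher at night in 3 of 3 tissues. The row ENSDARG00000075954 had 17.8 FPKM at night and 10.1 FPKM by day in the pineal gland, but 5.34 and 10.1 FPKM at night and by day in the eye and 5.58 and 8.06 FPKM in mixed tissue.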
